A study of Mus musculus with 6 samples.

Results

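C/D box small nucleolar RNAs (snoRNAs) were examined in the RNA of small extracellular vesicles (sEV), the membrane-bound particles that cells release. The members are all genes whose symbol in the GENCODE M21 annotation begins with Snord, found by Ensembl identifier among the 53379 genes of the deposited tables. There were 99 of them, and predicted snoRNA genes with Gm symbols are not among them. HypEV are vesicles of wild-type (WT) mouse embryonic cortical neurons treated with OGD/R, which the labels do not spell out and which the series text calls hypoxic. NorEV are vesicles of WT embryonic cortical neurons labelled control, which the series text calls normoxic. Each group had 3 libraries of total RNA, prepared with the EpiTM mini longRNA-seq kit. The sources used here do not give embryo age, pooling of animals or how vesicles were isolated. The labels do not say whether each library had a culture of its own, so each p-value speaks of the scatter among these 6 libraries, part or all of which may be technical.

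A C/D box snoRNA is a short RNA that carries a C box near its 5′ end and a D box near its 3′ end. Fibrillarin (Fbl), Nop56, Nop58 and Snu13 bind these boxes and form a particle that methylates the ribose of a nucleotide in a target RNA at its 2′-hydroxyl. The target is chosen by the stretch of snoRNA just upstream of a D box, which pairs with it, and most known targets lie in ribosomal RNA. A few members (U8, U13, U14 and U22) serve the cutting or maturation of ribosomal RNA, and the Snord116 copies of the imprinted Prader-Willi region have no agreed target. Most vertebrate C/D snoRNAs are cut out of introns of host genes, many of which encode ribosomal or nucleolar proteins, and they reside mainly in the nucleolus.

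The sequences below show 4 of the 5 members with the most reads, and a pair from one host gene of which one had reads and the other none. Capitals mark the first exact C box (ATGATGA or GTGATGA) from the 5′ end and the last CTGA, taken as the D box. The letters are those of the GENCODE M21 transcripts (GRCm38), written 5′ to 3′ on the RNA's own strand.
Snord17, chr2:144265979-144266216, minus strand: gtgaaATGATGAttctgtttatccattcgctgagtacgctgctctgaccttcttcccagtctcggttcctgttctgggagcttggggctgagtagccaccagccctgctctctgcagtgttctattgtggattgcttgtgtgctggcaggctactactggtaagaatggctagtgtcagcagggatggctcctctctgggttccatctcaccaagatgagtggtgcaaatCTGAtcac
Snord43, chr15:80082847-80082954, minus strand: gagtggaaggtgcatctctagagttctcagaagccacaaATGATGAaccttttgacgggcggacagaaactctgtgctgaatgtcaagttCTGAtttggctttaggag
Snord91a, chr11:74905424-74905516, plus strand: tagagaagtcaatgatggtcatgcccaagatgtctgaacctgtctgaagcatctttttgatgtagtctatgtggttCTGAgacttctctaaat
Snord110, chr2:130275506-130275573, plus strand: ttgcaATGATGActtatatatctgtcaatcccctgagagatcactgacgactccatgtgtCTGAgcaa
Snord15a, chr7:99482785-99482932, minus strand: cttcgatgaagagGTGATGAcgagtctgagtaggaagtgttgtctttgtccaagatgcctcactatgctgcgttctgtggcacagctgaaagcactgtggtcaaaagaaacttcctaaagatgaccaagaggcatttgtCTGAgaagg
Snord15b, chr7:99479563-99479707, minus strand: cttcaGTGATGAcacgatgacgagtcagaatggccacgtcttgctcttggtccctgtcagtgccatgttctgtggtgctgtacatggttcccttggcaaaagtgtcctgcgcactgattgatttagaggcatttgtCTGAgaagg

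The members carried the boxes of the class. An exact C box stood in 72 of 99 members (72.7%), and CTGA in all 99. In 66 members (66.7%) the C box lay within the first 20 nucleotides and CTGA within the last 20. The comparison set was 5517 other annotated genes of the same lengths with 1 transcript, with all genes annotated as snoRNA left out. Of these, 2.36% held the C box, 47.3% held CTGA and 0.0725% held both at the ends. Snord91a has no exact C box, and the annotation of Snord43 as a microRNA gene of 108 nucleotides runs well past its C box on the 5′ side. A match is a description of the letters, not of a bound protein.

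Depth was recovered from the FPKM values, which are fragments divided by gene length and by library total. With the longest M21 transcript as the length, 96.0% of non-zero values came out as whole reads (tolerance 0.01 reads), as did all values of the 99 members. The totals were 1320916 to 2141611 reads counted on genes in HypEV and 1092724 to 1494499 in NorEV. Libraries differed in the share taken by the short gene entry Gm23935 and its 5 near-identical copies: 49.6%, 1.97% and 24.5% in HypEV 1, 2 and 3, and 4.34%, 0.561% and 0.303% in NorEV 1, 2 and 3. The median FPKM of 10 neuronal markers was 4.55 to 11.8 in HypEV and 8.72 to 14.3 in NorEV, that of 5 astrocyte markers was 5.26 to 14.6 in HypEV and 10.9 to 12.6 in NorEV, and that of 5 endothelial and mural markers was 6.37 to 13.1 in HypEV and 12.3 to 15.2 in NorEV. The ranges were 5.72 to 8.33 in HypEV and 6.62 to 10.1 in NorEV for microglia, 2.19 to 4.92 in HypEV and 2.63 to 4.54 in NorEV for oligodendrocytes, and 2.51 to 6.97 in HypEV and 1.95 to 11.9 in NorEV for erythroid cells. Neuronal medians overlapped those of each other list, apart from oligodendrocytes in NorEV. All 37 markers of the 6 cell types listed were above 0 in at least 1 library.

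Few Snord reads were counted: 33 of the 99 members had at least 1 read in any library, with 425 reads between them. The other 66 were listed at 0, among them 37 that lie wholly within exons of other genes. The libraries of HypEV 1, 2 and 3 held 84, 83 and 44 Snord reads, and those of NorEV 1, 2 and 3 held 60, 78 and 76. Per 1000000 reads on genes (RPM) this is 39.2, 57.4 and 33.3 in HypEV and 54.9, 55.2 and 50.9 in NorEV. The groups overlapped, since HypEV 2 lay above all NorEV libraries while HypEV 1 and 3 lay below them. The means were 43.3 ± 12.6 RPM in HypEV and 53.6 ± 2.43 RPM in NorEV (SD, n = 3 each). The 95% Wilson intervals reached from 24.8 to 44.7 RPM for the lowest library, HypEV 3, and from 46.3 to 71.2 RPM for the highest, HypEV 2. Intervals and limits cover counting error only.

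The order of the group means depended on whether Gm23935 and its copies were in the totals. With them taken out, the Snord level in RPM was 77.8, 58.6 and 44.1 in HypEV and 57.4, 55.5 and 51.0 in NorEV, with means of 60.2 ± 16.9 RPM in HypEV and 54.6 ± 3.28 RPM in NorEV (SD, n = 3 each). HypEV 1, where these entries took about as many reads as all other genes, moved from below the NorEV libraries to above them. Fewer vesicles and less of an RNA per vesicle cannot be told apart in such libraries.

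Where a member lay in the annotation went with whether it had reads. The 37 members that lie wholly within an annotated exon of another gene on the same strand had 0 reads in all 6 libraries. Of 55 members that lie only in introns 29 had reads, and so did all 3 members outside any longer gene on their strand (Snord13, Snord104 and Snord118). Whether reads on members in introns came from the snoRNA or from host RNA that still held the intron was not tested. Of 4 members partly within a sense exon, the only one with a read was Snord66, which overlaps by 1.33% of its length and had 1 read. How the counting treated a read that fits more than one gene is not given in the sources used here, and its part in these zeros was not tested.

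The exons that cover these 37 members belong to 25 genes, all of which had reads of their own. They include 9 genes of ribosomal proteins, the growth-arrest RNA Gas5 (host of Snord47, Snord78 and both genes named Snord80), Snhg1 (host of Snord22), Hspa8 (host of Snord14c, Snord14d and Snord14e) and Eif4a2 (host of Snord2). Their reads summed over the 6 libraries ran from 9 for Rab26os to 523 for Eif4a2, and 22 of the 25 had reads in every library. A listed 0 for such a member leaves unknown whether its RNA was in the vesicles. Among all other genes of the members' lengths (64 to 238 nucleotides), 11 of 398 genes wholly within a sense exon had a read, against 123 of 159 wholly within an antisense exon only.

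**Figure D1:**
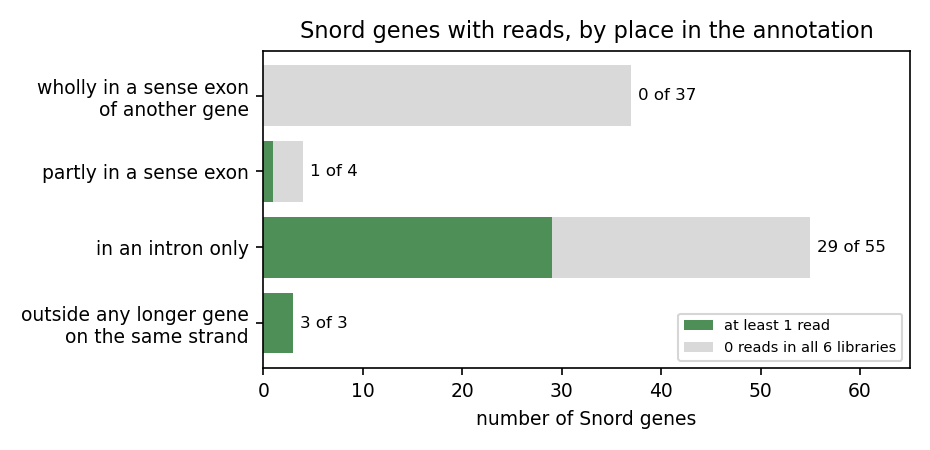
Number of Snord genes (horizontal axis) by their place in the GENCODE M21 annotation (vertical axis), split into genes with at least 1 read in any of the 6 libraries (green) and genes with 0 reads (grey). All 37 genes wholly within a sense exon of another gene had 0 reads, while 29 of 55 in introns and 3 of 3 outside longer genes had reads.

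Some host genes held members of both kinds, and Rps3, Nop56 and 2410002F23Rik showed the same split. Rps3, which encodes a protein of the small ribosomal subunit, holds Snord15a in an intron and Snord15b wholly within an annotated exon. Snord15a had 2 reads for HypEV, against 5 for NorEV (adjusted p = 0.834, limma), and Snord15b had none. In Nop56, whose product binds the boxes, the intronic Snord110 had 16 reads in HypEV and 3 in NorEV while Snord57, covered by an exon, had 0. In 2410002F23Rik the intronic Snord88c had 0 reads in HypEV and 3 in NorEV, and Snord88a had 0. In Rpl13a the members of both kinds were at 0 (Snord33 in an exon, and Snord32a, Snord34 and Snord35a in introns).

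Members without any overlap with a sense exon were set beside other short genes placed likewise. A read was found for 32 of 58 such Snord genes (55.2%), 16 of 24 Snora and Scarna genes (66.7%; H/ACA snoRNAs and their Cajal body relatives), 871 of 1248 predicted Gm snoRNA genes (69.8%) and 4418 of 6184 genes of all other kinds together (71.4%). The median lengths were 91.5 nucleotides for the Snord genes and 115 for all other kinds. These shares were not tested against each other.

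Among the 45 members outside the Snord116 family and not wholly in a sense exon, length went with the presence of reads. Of 10 that are 100 nucleotides or longer 9 had reads, against 17 of 35 shorter ones, a cut chosen after the values were seen. Pooled per length, the longer members were also higher in 5 of 6 libraries, HypEV 3 being the exception. Without Snord17 and without any exon overlap, the reads of 8 longer members over their summed length came to FPKM of 8.49, 17.8 and 0.810 for HypEV and of 15.7, 9.08 and 14.3 for NorEV. For 32 shorter members the FPKM was 5.49, 8.98 and 3.68 for HypEV, against 8.54, 4.02 and 5.43 for NorEV. Among the 8 longer ones, Snord43 (108 nucleotides as annotated) had 42 reads in all and Snord13 (104 nucleotides) had 21. In HypEV 2 they had 8 and 15 reads, and in NorEV 1 Snord43 had 13. The pooled values of longer members thus rest largely on these genes, and the comparison without them was not made. All 40 members together averaged 6.87 ± 4.27 FPKM in HypEV and 7.92 ± 2.54 in NorEV (SD, n = 3 each). The median FPKM of the 44125 genes tested averaged 4.78 ± 2.33 over HypEV libraries and 6.53 ± 0.878 over NorEV libraries. For all 53379 genes, without the filter on low values, it averaged 3.40 ± 1.96 in HypEV and 4.84 ± 0.937 in NorEV. A pooled value and a median over genes are unlike measures.

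**Figure D2:**
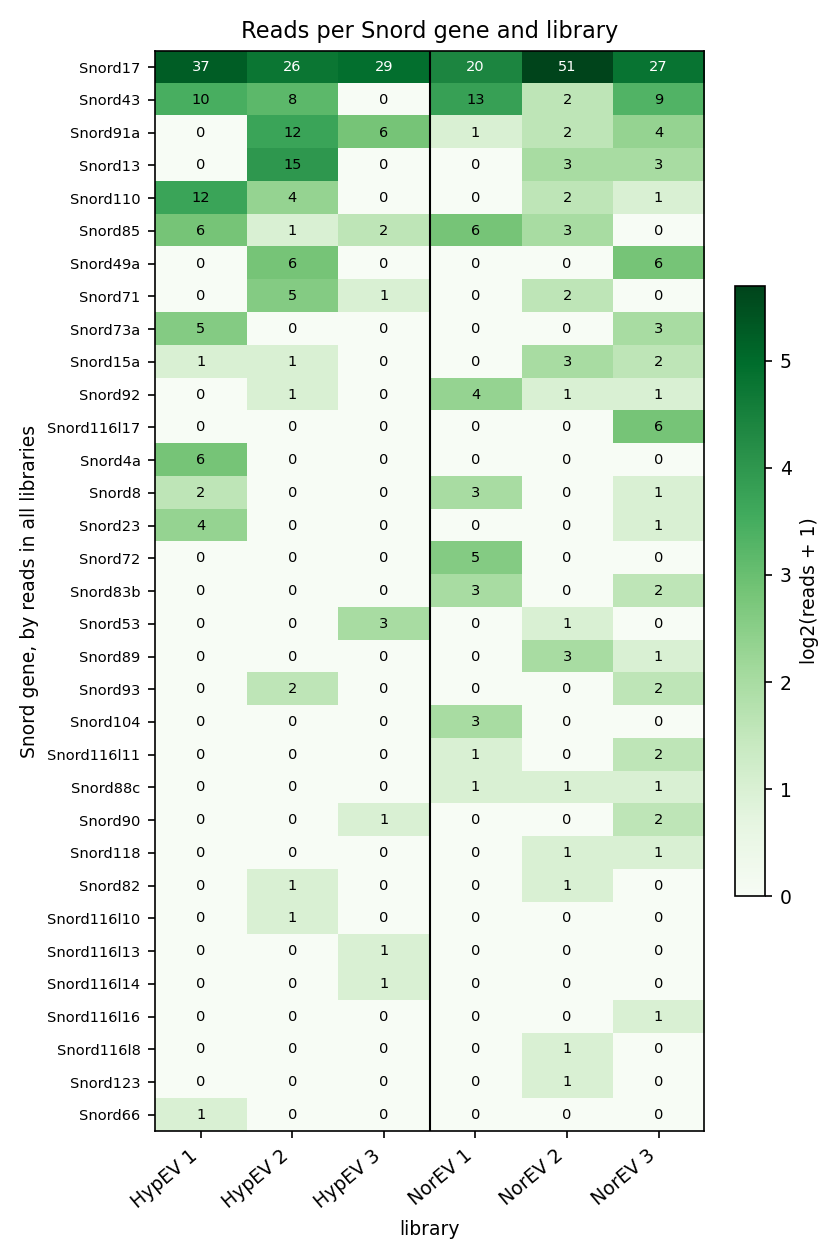
Reads per library (columns, HypEV left of the line and NorEV right of it) for each of the 33 Snord genes with at least 1 read (rows, ordered by their sum); the number is the read count and the shade is log2(reads + 1). Snord17 alone has reads in all 6 libraries, from 20 to 51, and most other cells are 0.

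Snord17 was the leading member and the only one read in every library. It is the longest member, at 238 nucleotides, and lies in an intron of Snx5, the gene of a sorting nexin of endosomes. It had 37, 26 and 29 reads in HypEV 1, 2 and 3 and 20, 51 and 27 in NorEV 1, 2 and 3. As FPKM this is 72.6, 75.6 and 92.2 for HypEV, against 76.9, 151.6 and 75.9 for NorEV. The groups overlapped, with NorEV 2 higher than all other libraries and the other 5 between 72.6 and 92.2 FPKM. The means were 80.1 ± 10.6 FPKM in HypEV and 101 ± 43.4 in NorEV (SD, n = 3 each), and the log2 difference of -0.27 ± 0.44 (SE) did not pass (limma, adjusted p = 0.878). With each library centred on its median the difference was 0.18, so its sign depended on the scaling.

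Snord17 took a large and uneven part of the Snord reads. Its share was 44.0%, 31.3% and 65.9% of them in HypEV 1, 2 and 3 and 33.3%, 65.4% and 35.5% in NorEV 1, 2 and 3. The exact 95% intervals were 21.6 to 42.4% in HypEV 2 and 50.1 to 79.5% in HypEV 3, so the libraries of one group differed beyond counting error. By FPKM Snord17 stood at percentile 98.8 to 99.7 of all genes, and at rank 10 to 55 of 1507 genes annotated as snoRNA. Its host Snx5 reached FPKM of 8.36, 3.86 and 13.6 for HypEV, against 5.83, 6.76 and 10.9 for NorEV. By FPKM, Snord17 was above its host in all 6 libraries, by 6.80 to 19.6 times in HypEV and 6.95 to 22.4 times in NorEV. Snx5 had 45, 14 and 45 reads in HypEV 1, 2 and 3 and 16, 24 and 41 in NorEV 1, 2 and 3. The ratios thus rest on few reads and on the unlike lengths of the 2 genes.

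**Figure D3:**
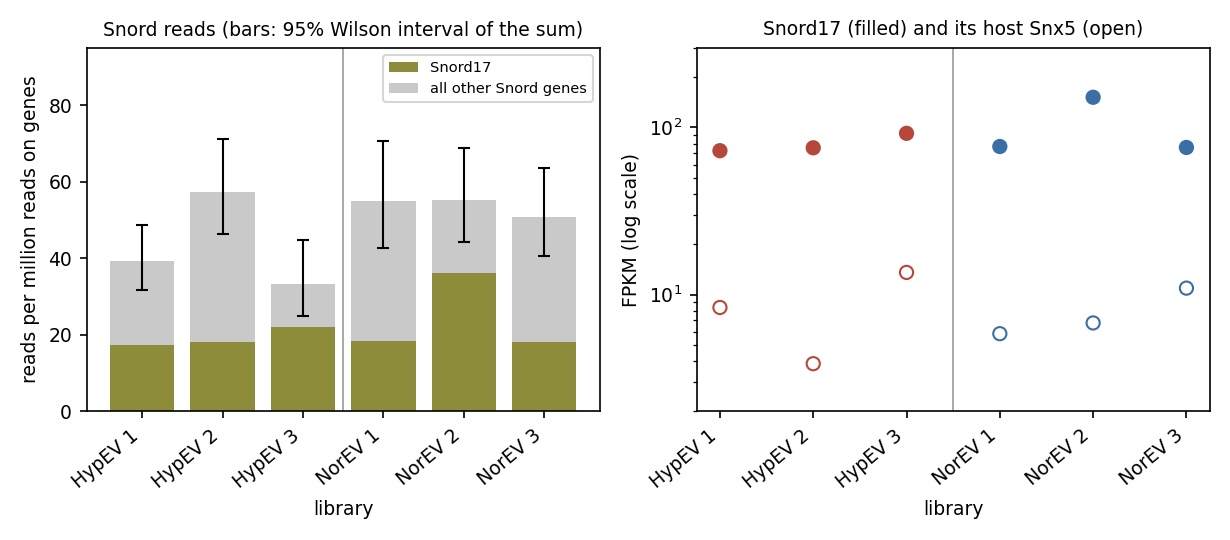
Left, Snord RPM in each library (bars from 0), split into Snord17 and all other Snord genes, with 95% Wilson intervals of the sum. Right, FPKM on a log scale of Snord17 (filled) and of its host Snx5 (open) per library, HypEV left of the line and NorEV right of it; Snord17 lies above Snx5 in all 6 libraries.

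The 4 next members had 19 to 42 reads in all, and their libraries varied more than Snord17. Snord43, in an intron of the ribosomal protein gene Rpl3, reached FPKM of 43.2, 51.2 and 0 for HypEV, against 110.2, 13.1 and 55.8 for NorEV. The lowest library, at 0 reads, was HypEV 3 and the highest, at 13 reads, was NorEV 1, and the groups overlapped (log2 difference -1.76 ± 1.46 SE, adjusted p = 0.798, limma). Snord91a, in an intron of Tsr1, a gene of small-subunit maturation, reached FPKM of 0, 89.3 and 48.8 for HypEV, against 9.84, 15.2 and 28.8 for NorEV. HypEV held both its highest libraries and its only 0 (-0.07 ± 1.48 SE, adjusted p = 0.994).
Snord110 reached FPKM of 82.4, 40.7 and 0 for HypEV, against 0, 20.8 and 9.84 for NorEV (1.29 ± 1.70 SE, adjusted p = 0.841). Its 12 reads in HypEV 1 came beside 2 reads of its host Nop56 in that library. Snord85 followed with FPKM of 38.4, 9.48 and 20.7 for HypEV, against 75.2, 29.1 and 0 for NorEV (0.66 ± 1.41 SE, adjusted p = 0.911), and its groups overlapped. In 3 of the 33 members tested the mean FPKM and the log2 difference had opposite directions. Mean FPKM was 46.0 in HypEV and 17.9 in NorEV for Snord91a, 22.9 in HypEV and 34.8 in NorEV for Snord85, and 33.3 in HypEV and 13.2 in NorEV for Snord13, so their direction depends on the scale. The 10 members with the most reads held 350 of the 425 reads (82.4%).

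The members that serve ribosomal RNA processing had reads where they lie outside any longer gene. Of 7 such members, 5 lie within sense exons (Snord14a, Snord14c, Snord14d, Snord14e and Snord22) and were at 0. Snord13 (U13), which guides the acetylation of 18S ribosomal RNA in human cells, had FPKM of 0, 99.8 and 0 for HypEV, against 0, 20.4 and 19.3 for NorEV. Its 15 reads in HypEV 2 outnumber the 6 of all other libraries, and the groups overlapped (log2 difference -0.70 ± 1.89 SE, adjusted p = 0.931, limma). Snord118 (U8), needed for 5.8S and 28S ribosomal RNA in human cells, had 0 reads for HypEV, against 0, 1 and 1 for NorEV (adjusted p = 0.737, limma). Its sequence is 96.2% alike to that of Gm24208, so reads of the 2 genes could be exchanged.

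Few reads were counted on the Snord116 family. Its 17 members, in introns of Snhg14 on chromosome 7, had 3 reads in HypEV and 11 in NorEV, and 10 of the 17 had none. Of these 14 reads, 6 fell on Snord116l17 in NorEV 3, where it had 42.7 FPKM, and it was at 0 in the other 5 libraries. NorEV 3 held 9 of the 11 NorEV reads. The family's reads over its summed length came to 0.460 ± 0.474 FPKM in HypEV and 1.59 ± 1.88 in NorEV (SD, n = 3 each), and without NorEV 3 the NorEV mean was 0.508 FPKM, a value computed after the data were seen. Snhg14 itself averaged 13.6 ± 5.86 FPKM in HypEV and 17.9 ± 2.42 in NorEV. No symbol among the members begins with Snord113, Snord114 or Snord115, the other large imprinted families.

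The Snord116 copies can hardly be told apart by sequence. Of the 17 members 14 are letter for letter the same, and each of the 17 has 69 annotated genes over 90% alike, 53 of them with other symbols. The sequences below show the common form and 2 of the 3 members that differ from it, with the same capitals as above.
Snord116l17, chr7:59861731-59861824, minus strand: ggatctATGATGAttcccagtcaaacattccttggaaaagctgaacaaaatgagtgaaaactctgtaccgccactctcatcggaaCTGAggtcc
Snord116l14, chr7:59871864-59871957, minus strand: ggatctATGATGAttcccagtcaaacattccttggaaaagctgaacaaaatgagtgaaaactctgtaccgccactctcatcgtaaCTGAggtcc
Snord116l12, chr7:59904755-59904848, minus strand: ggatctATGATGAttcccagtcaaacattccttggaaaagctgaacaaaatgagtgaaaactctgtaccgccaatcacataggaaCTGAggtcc
Counted from the 5′ end of the common form, Snord116l14 differs by G83T, Snord116l12 by C74A, T77A and C81A, and Snord116l9 by G1A and C16T. Snord116l14 had 1 read, in HypEV 3, and Snord116l12 and Snord116l9 had none. Reads on any one of the identical copies are uncertain as to their gene.

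No member passed the test of HypEV against NorEV. It ran on log2(FPKM + 1) over the 44125 genes averaging 1 FPKM or more (limma, two-sided, with Benjamini-Hochberg adjustment), where 7 genes passed an adjusted p under 0.05, or 0.0159% of those tested. All 33 members with a read passed the filter on low values and 0 passed the test, with a smallest adjusted p of 0.240. The 66 members at 0 were not tested. At an unadjusted p under 0.05 there were 4 of the 33, all lower in HypEV, against 6.13% lower among all tested genes, and 0 higher, against 0.635%. On recovered reads limma-voom called 0 members, with 0 at an unadjusted p under 0.05, against 0.557% of all tested genes called (0.142% with the Gm23935 family left out) and 11.9% at an unadjusted p under 0.05. On the log2(FPKM + 1) scale 13 members were above and 20 below 0 (60.6% below, against 74.9% of all tested genes), with a median of -0.27 against -0.44. Scaling moved this split: 17 were above and 16 below 0 after median centring or quantile normalization, which brought the median of all genes to 0.01 and 0.03, and 10 above and 23 below with array weights or limma-voom. The members with a read were kept through the group where it fell, so these counts support nothing about the class.

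The 4 members with an unadjusted p under 0.05 rest on few reads. Snord88c had 0 reads in HypEV 1, 2 and 3 and exactly 1 read in each of NorEV 1, 2 and 3, which is 10.2, 7.86 and 7.43 FPKM. It is the only member whose groups did not overlap, as was so for 10.8% of all tested genes with HypEV lower and 1.1% with HypEV higher (log2 difference -3.24 ± 0.60 SE, adjusted p = 0.240, limma). A count of 0 allows up to 3 reads in a library, so a difference between 0 and 1 was not detectable at this depth, and Snord88c is 94.4% alike to Snord88a. At 80 nucleotides 3 reads are worth 17.5 to 28.4 FPKM in HypEV and 25.1 to 34.3 FPKM in NorEV.
Snord92, in an intron of Wdr43, had 0, 1 and 0 reads for HypEV, against 4, 1 and 1 for NorEV (-2.88 ± 1.02 SE, adjusted p = 0.712). Snord83b, in Rpl3 beside Snord43, had 0 reads for HypEV, against 3, 0 and 2 for NorEV (adjusted p = 0.720). Snord116l11 had 0 for HypEV, against 1, 0 and 2 for NorEV (adjusted p = 0.720). Of the other members lower in HypEV with the smallest p, Snord89 had 0 reads for HypEV, against 0, 3 and 1 for NorEV (adjusted p = 0.720).

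The 6 members of smallest p on the higher side had 1 to 8 reads each. Snord4a, in Rpl23a, had 6 reads in HypEV 1 and 0 in all other libraries (adjusted p = 0.797, limma). It also lies in Tlcd1 on the opposite strand, with 100% of its length in an exon there. Which of these genes its reads came from was not tested. Snord71, in Ap1g1, had 0, 5 and 1 reads for HypEV, against 0, 2 and 0 for NorEV (adjusted p = 0.802). Snord116l10, Snord116l13, Snord116l14 and Snord66 each had 1 read in 1 HypEV library and 0 in NorEV. Snord49a had 6 reads in HypEV 2 and 6 in NorEV 3, and Snord73a had 5 in HypEV 1 and 3 in NorEV 3, each with 0 elsewhere. Most members were read in few libraries: 11 had reads in 1 library and 11 in 2, against 4 in 3, 3 in 4, 3 in 5 and 1 in all 6. By group, 5 members had reads in HypEV alone, 11 in NorEV alone and 17 in both, and no member seen in 1 group alone had more than 6 reads. The like split of all genes is not given here, so these counts do not mark out the Snord genes.

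The number of members with a read was 10, 13 and 8 in HypEV 1, 2 and 3 and 11, 16 and 20 in NorEV 1, 2 and 3, with means of 10.3 ± 2.52 in HypEV and 15.7 ± 4.51 in NorEV (SD, n = 3 each). The groups overlapped, since HypEV 2 held more members than NorEV 1. With at least 3 reads asked for, the numbers were 7, 7 and 3 in HypEV and 8, 5 and 7 in NorEV. Like numbers for all genes are not given here, so a trait of the Snord genes cannot be read from these.

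**Figure D4:**
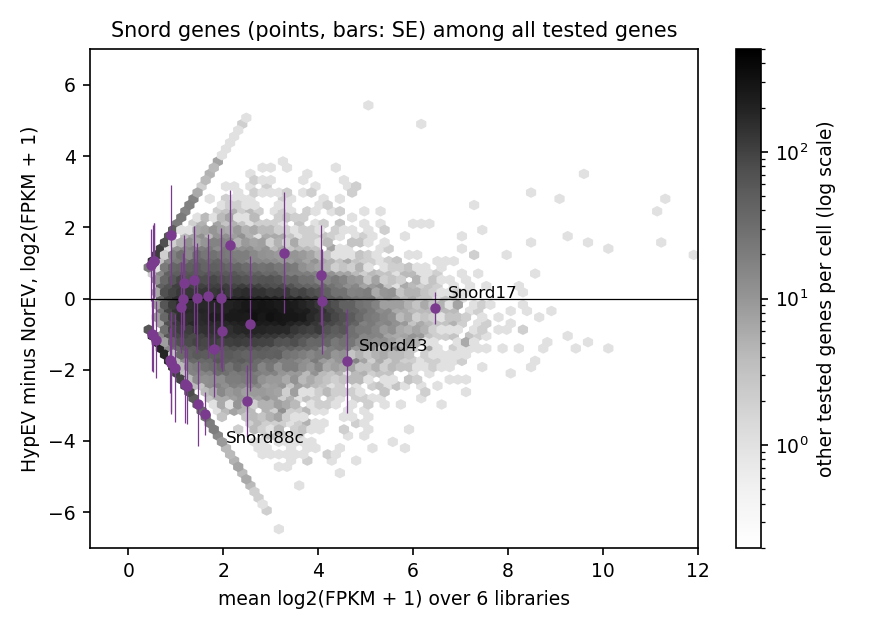
Difference of HypEV minus NorEV in mean log2(FPKM + 1) (vertical axis) against the mean of log2(FPKM + 1) over the 6 libraries (horizontal axis) for the 33 tested Snord genes (points, bars: SE from limma), over all other tested genes (grey, shade by number on a log scale). Members near the slanted edges have reads in 1 group only; 2 genes lie outside the axes.

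Of 54 host genes 53 had reads, and 2700038G22Rik, the host of Snord93, was at 0. None of the hosts tested and none of the genes of the particle's core proteins passed the test. There were 52 hosts tested, with 14 above and 38 below 0 in HypEV and a median log2 difference of -0.21. Of all tested genes 74.9% were below 0, with a median of -0.44, so this split does not mark out the hosts. After median centring 39 hosts were above and 13 below, so their direction depended on the scaling. The most read hosts were Eif4g1 with 29.6 ± 8.66 FPKM in HypEV and 32.4 ± 4.30 in NorEV, and Snhg14, Sf3b3 and Tsr1 (log2 differences -0.44 ± 0.43, -0.37 ± 0.43 and -0.62 ± 0.58 SE; adjusted p 0.799 to 0.821 in limma). Of 30 members that had reads and a host, 10 had a higher mean FPKM than the host and 20 a lower one.
The genes of the 4 core proteins were all below 0 on the log2(FPKM + 1) scale, 3 of 4 after median centring and 2 of 4 after quantile normalization. Fbl, the methyltransferase, reached FPKM of 18.6, 36.7 and 18.5 for HypEV, against 46.3, 46.4 and 42.7 for NorEV, so its groups did not overlap, as in 10.8% of all tested genes with HypEV lower (log2 difference -0.92 ± 0.41 SE, adjusted p = 0.720, limma). Nop56 averaged 3.40 ± 2.73 FPKM in HypEV and 6.12 ± 4.05 in NorEV (SD, n = 3 each). Nop58 averaged 3.51 ± 1.27 FPKM in HypEV and 5.16 ± 1.32 in NorEV. Snu13 averaged 12.2 ± 12.98 FPKM in HypEV and 10.7 ± 4.06 in NorEV, so its mean FPKM was higher in HypEV while its log2 difference was -0.28 ± 0.74 (SE), and 0.41 without HypEV 1. Of 41 listed genes of the particle, its assembly, export and trimming and of non-coding hosts, 38 were tested, with 9 above and 29 below 0 and 0 past the threshold (20 above and 18 below after median centring). The smallest adjusted p among them was 0.689 (limma). Their split before centring likewise stands beside 74.9% below 0 among all tested genes.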

How the data were processed

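The authors deposited 1 table of FPKM values per library. The file names mention HTSeq, and the aligner, genome build and annotation are not given in the sources used here. Of 53379 Ensembl identifiers 53274 were found in GENCODE M21 (GRCm38) and 105 were not. Reads were recovered as FPKM times the longest transcript length, divided by the value of 1 read. Overlaps with exons of genes of at least 300 nucleotides used bedtools 2.31.1, and copies over 90% alike over 80% of the length used blastn 2.17.0.

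HypEV was compared with NorEV by limma 3.58.1 (R 4.3.3) on log2(FPKM + 1) with a variance trend. A filter at a mean of 1 FPKM came first. The test was also run on simulated data without the Gm23935 family, with changes placed on genes with more reads than most members. Reads were drawn with the same scatter setting for all genes. Apart from the placed changes, the mean composition was the same in all libraries. The real libraries differed in the share of the family, so the simulation does not show how the test behaves under such differences. The median error over raised and lowered genes together was small, which does not show how close single estimates lay. None of the smaller and some of the larger changes passed the threshold, and some unchanged genes passed it. Members with fewer reads are not covered by the simulation. The members, lists and tests were chosen with earlier results of these data known. Genes were named by a rule: members past the threshold, the 6 smallest p per direction, the 10 with most reads, the 3 with most reads per class, the 4 core proteins and the 4 most read hosts; others are named in counts or after their values were seen. Other steps used Python 3.11.15, pandas 2.3.3, scipy 1.17.1 and matplotlib 3.10.9. Some members' sequences and host genes are not reported here.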

Additional observations from a re-analysis of the deposited data

How the results depend on the processing

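The count of members past the threshold was 0 under all 16 alternatives (smallest adjusted p 0.0627, for Snord88c with array weights). The 7 calls among all genes became 0 without a filter, with a pseudocount of 0.1, with median centring, without a trend or with a replicate block, and 75 with array weights, 236 with limma-voom, 60 with limma-voom without the Gm23935 family, and 0 to 71 with 1 library left out (71 without HypEV 2, 2 without HypEV 1 or NorEV 1). Deviations of same-numbered libraries correlated at 0.0446, 0.102 and -0.0582, and 3 of 6 libraries correlated best with their own number. With so few libraries this cannot decide whether replicate numbers pair them. The median log2 difference of tested members ran from -1.19 (array weights) to 0.18 (median centring). The difference in Snord RPM was -10.3, 5.52 without the family in the totals, and -17.4 (without HypEV 2) to -5.33 (without HypEV 3) with 1 library left out. The difference in members seen was -5.33, -1 with at least 3 reads, and -7.67 (without NorEV 1) to -3.17 (without NorEV 3) with 1 library left out.

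Of 337 values of 22 named members, 28 changed sign, in 8 members, none past the threshold in any setting; the cause was not tested. Snord17 became 0.18 with median centring, 0.20 with quantile normalization, 0.12 with limma-voom without the family. Snord91a became 0.38, 0.33 and 0.65 there, and 0.40 with array weights. With array weights Snord110 was -1.57, Snord49a -2.30 and Snord73a -1.71, and in limma-voom Snord49a was -0.17 and Snord73a -0.12. With 1 library left out, Snord17 ran from -0.43 to 0.060, Snord43 from -2.75 to 0.11, Snord91a from -1.30 to 1.95, Snord13 from -2.92 to 0.41, Snord110 from -0.021 to 3.25, Snord85 from -1.20 to 1.92, Snord49a from -1.94 to 1.96 and Snord73a from -1.64 to 1.71. Depth limits these values: 1 read on 80 nucleotides is worth 5.84 to 9.46 FPKM in HypEV and 8.36 to 11.4 FPKM in NorEV.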
